A study of Mus musculus with 4 samples.

Results

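Rab GTPases are small proteins that mark the membranes of a cell's compartments, and 59 mouse genes that encode them were examined for peaks of RNA recovered with IGF2BP2. The genes are the protein-coding ones whose symbol is Rab, a number and at most 2 letters. Of 61 such symbols, Rab3ip and Rab5if were left out because they name interacting factors. Of the 59 genes, 28 had a peak on their own strand (a sense peak) in at least 1 library: 60 of the 15511 peaks of replicate 1 and 73 of the 22570 peaks of replicate 2. The libraries were made from bone-marrow-derived macrophages (BMDMs), that is, macrophages grown in culture from marrow, by RNA immunoprecipitation and sequencing (RIP-seq). The design has 2 IGF2BP2 immunoprecipitation (IP) libraries and 2 input libraries, and only the IP libraries have values here. The labels give no strain, age, treatment or genotype, and nothing in them ties a replicate to its own culture or mouse. For the IP they name an antibody to IGF2BP2 in one field and a Flag antibody in another.

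A Rab protein switches between a GTP-bound form, which sits on a membrane and recruits effectors, and a GDP-bound form that is held in the cytosol. Exchange factors (GEFs) load GTP, GTPase-activating proteins (GAPs) end the signal, and GDI and REP proteins carry the lipid-modified protein through the cytosol. In macrophages these switches time phagosome maturation, receptor recycling, cytokine secretion and delivery to lysosomes. IGF2BP2 binds mRNA and is counted among the readers of m6A, a methyl mark on adenosines, and GGAC is a common core of the sequence around that mark.

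Each value below is a tag count: the whole number of sequenced tags that the authors assigned to a peak of 1 library, not scaled to depth or to an input. A gene can therefore have a peak because it is bound or because it is abundant, and these cannot be told apart, nor can more cells from more RNA per cell. The 13297 and 19168 sense peaks of protein-coding genes held 163579 tags in replicate 1 and 294173 in replicate 2, a ratio of 1.80. Of the 8 macrophage markers looked up, Csf1r, Adgre1, Itgam, Mrc1 and Mertk had peaks in both libraries, Cd68 in replicate 2, Fcgr1 in replicate 1 and Lyz2 in neither. Among 11 markers of T cells, B cells, neutrophils, fibroblasts and dendritic cells, Cd3e (1 peak, 3 tags) and Col1a2 (3 peaks, 9 tags) had peaks, both in replicate 1, and the others had none.

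In 5 cases a Rab peak had exactly the same ends in both libraries, and each filled a coding exon from end to end. Their sequences are shown because their ends, which are exon ends, were the same in both libraries. In addition, 4 of them hold codons of the P-loop or of the guanine-binding motif Asn-Lys-X-Asp, which contact the nucleotide. Of these 4, Rab7 exons 2 and 3 hold parts of 1 P-loop. These codons were searched after the values had been seen. Peaks covered the P-loop in both libraries in 1 of the 57 Rab genes where it was found, and the guanine-binding motif in 2 of 51. The summits of these pairs lay 0 nt apart in Rab7 exon 3, Rab10 exon 4 and Rab14 exon 7. They lay 27 nt apart in Rab7 exon 2 and 34 nt in Rab8a exon 5. Pairs with unlike ends could be as close, at 0 nt in Rab8a exon 6 and 2 nt in Rab10 exon 6. The sequences are given 5′ to 3′ on the mRNA, from GENCODE release 21 transcripts on GRCm38, with GGAC in capitals.
Rab7 exon 2 of 6, coding part, chr6:88013638-88013690, minus strand: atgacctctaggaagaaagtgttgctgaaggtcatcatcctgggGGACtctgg
Rab7 exon 3 of 6, chr6:88012307-88012433, minus strand: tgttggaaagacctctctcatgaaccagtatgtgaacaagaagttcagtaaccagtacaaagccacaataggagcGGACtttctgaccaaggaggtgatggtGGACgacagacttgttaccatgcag
Rab10 exon 4 of 6, chr12:3253269-3253358, minus strand: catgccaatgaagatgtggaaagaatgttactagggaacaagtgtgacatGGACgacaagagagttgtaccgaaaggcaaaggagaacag
Rab8a exon 5 of 8, chr8:72175840-72175929, plus strand: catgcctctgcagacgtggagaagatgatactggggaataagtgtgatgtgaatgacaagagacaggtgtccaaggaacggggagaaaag
Rab14 exon 7 of 8, chr2:35183393-35183423, minus strand: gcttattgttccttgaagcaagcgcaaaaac

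The Rab10 and Rab8a exons are counterparts: each is 90 nt long, they cover codons 110 to 139 and 109 to 138, and 63 of their 90 bases (70.0%) are identical without a gap. Both hold the codons for Asn-Lys-X-Asp. The Rab10 exon had 10 tags in each library, and the Rab8a exon had 8 tags in replicate 1 and 9 in replicate 2. Rab7 exons 2 and 3 adjoin in the mRNA and together carry the P-loop, the glycine-rich loop that holds the phosphates, whose codons start at codon 15. They had 11 and 9 tags in replicate 1 and 24 and 17 in replicate 2. The exon 7 peak of Rab14 is only 31 nt long, and it had 6 tags in replicate 1 and 20 in replicate 2. Since read pairs can span several exons and the counting rule is not given in the sources used here, a pair may have been counted in more than 1 of these peaks.

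A further set of sequences comes from 3′ untranslated regions (3′ UTRs), the stretch after the stop codon that often carries sites for RNA-binding proteins. Of the 11 pairs of overlapping 3′ UTR peaks, 2 of the 3 in Rab8b and the 1 in Rab22a held GGAC in the untranslated part of the overlap. The 26 nt around 1 occurrence in each are shown. In Rab22a it is the occurrence nearest to the replicate 2 summit, and in the Rab8b overlap near the exon end it is the only one. The Rab8b overlap near the exon start held 2, and the one nearest to the middle of the overlap is shown, not the one nearest to a summit.
Rab8b exon 8 of 8, near its start, chr9:66847532-66847557, minus strand: agcaaaagagcGGACtcctttcttta
Rab8b exon 8 of 8, near its end, chr9:66844228-66844253, minus strand: gggattccggaGGACatagcaggtca
Rab22a exon 7 of 7, chr2:173701302-173701327, plus strand: ggcgtgcaaagGGACcatgcatgccc

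Of the 59 Rab genes, 20 had a sense peak in replicate 1, 25 in replicate 2 and 17 in both (28.8%, exact binomial 95% interval 17.8 to 42.1). The background over all 21951 annotated protein-coding genes was 22.0% for replicate 1, 26.7% for replicate 2 and 17.0% for both. The share in both was thus above the background, which lay just under the interval. Positions were shared, with peaks overlapping by at least 1 bp, in 12 genes (20.3%) against 9.07% of all protein-coding genes. These intervals cover counting error only, genes are not replicates, and no test was made, because the family was chosen with earlier results known. When each list was limited to its stronger 50% by tags, 8 Rab genes (13.6%, 6.04 to 25.0) had a peak in both, against 8.20% of all protein-coding genes, which lies inside that interval. With equal numbers of the strongest peaks it was 13 Rab genes (22.0%, 12.3 to 34.7) against 13.6%, which also lies inside the interval.

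**Figure D1:**
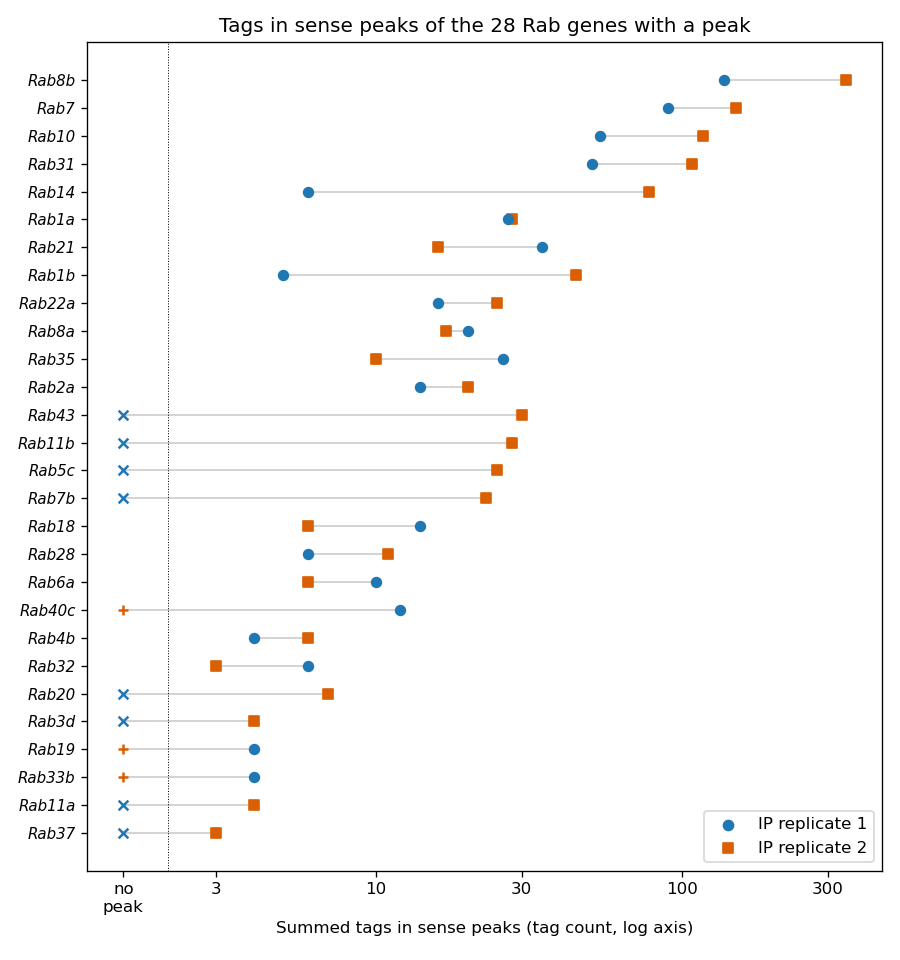
Summed tags in sense peaks (log axis) for each of the 28 Rab genes with a peak, in IP replicate 1 (circles) and IP replicate 2 (squares), with crosses for no peak. Rab8b, Rab7, Rab10 and Rab31 lie to the right of the other genes in both libraries, and 11 genes have a peak in 1 library only.

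The tags were concentrated in 4 genes. Rab8b, Rab7, Rab10 and Rab31 together held 61.4% of the family's 542 tags in replicate 1 and 64.6% of its 1115 tags in replicate 2. Rab8b alone held 25.5% and 30.9%. Long genes can hold more tags, so levels were also set per length, as exonic tags per kb of the representative mRNA. On that scale Rab7 led in both libraries, with 37.1 in replicate 1 and 49.6 in replicate 2. Rab10 followed with 13.1 and 28.2, and Rab8b had 9.93 and 23.2. A Rab8b peak of 94 tags over exon 1 in replicate 2 is left out here because it lies mostly in an intron. Rab31 had 6.05 and 15.5, below Rab1a (7.90) and Rab21 (6.30) in replicate 1. In replicate 2, Rab1b (23.5) and Rab14 were above both Rab8b and Rab31. With 2 libraries, neighbours in this order cannot be told apart: Rab14 had 1.95 exonic tags per kb in replicate 1 and 25.3 in replicate 2.

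Among the genes of recycling and secretion, Rab8b, Rab8a, Rab10, Rab14 and Rab35 had peaks in both libraries. These are 5 of the 11 listed (45.5%, 16.7 to 76.6). The 17.0% of all protein-coding genes lies inside this interval and inside those of the role groups below. Rab8b, which directs vesicles to the plasma membrane, had 9 peaks with 138 tags in replicate 1 and 11 peaks with 344 tags in replicate 2. Its 3 peaks that lay mostly in the 3′ UTR overlapped between the libraries, in exon 8. From the start of the exon they had 21, 16 and 10 tags in replicate 1 and 48, 30 and 32 in replicate 2. All 3 were higher in replicate 2, by 2.29, 1.88 and 3.20 times. The other Rab8b peaks were mostly in introns, with 6 peaks and 91 tags in replicate 1 and 8 peaks and 234 tags in replicate 2.

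The strongest peak of the family lay at the 5′ end of Rab8b in replicate 2, at chr9:66918519-66919664. It had 94 tags over 1146 nt, covered exon 1 with its start codon and ran 86.0% within intron 1. Replicate 1 had no peak there, while 99.2% of all 22570 peaks of replicate 2 had fewer tags. An antisense peak of 6 tags lay within its bounds in the same library. All 6 intron peaks of Rab8b in replicate 1, and 6 of 8 in replicate 2, were in intron 1, which is 56.0 kb long. Of these, 2 in replicate 1 overlapped 3 in replicate 2.

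Rab8a, the close relative of Rab8b, had 4 peaks with 20 tags in replicate 1 and 2 peaks with 17 tags in replicate 2. Unlike Rab8b, it had no 3′ UTR peak in either library. Its coding peaks numbered 3 in replicate 1 and 2 in replicate 2, and adjoining exons were shared, exon 5 with 8 and 9 tags and exon 6 with 4 and 8 tags. The exon 6 peak filled 48 nt from the start of the exon in replicate 1 and ran on into the next intron in replicate 2.

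Rab10, which acts in secretion and in returning receptors to the surface, had 5 peaks with 54 tags in replicate 1 and 8 peaks with 117 tags in replicate 2. Exons 4, 5 and 6 carried a coding peak in both libraries, with 10, 14 and 9 tags in replicate 1 and 10, 17 and 10 in replicate 2. Not all of these peaks were wholly coding. The exon 5 peak of replicate 2 lay 49.0% in an intron, and the exon 6 peaks lay 44.0% and 42.0% in the 3′ UTR. The tags of the peaks in these 3 exons differed little between the libraries. The others differed more: replicate 2 had 2 peaks with 35 tags in the 5′ UTR, where replicate 1 had none, and 1 peak with 27 tags in the 3′ UTR, against 13 tags at another position in replicate 1. The end of the gene overlaps Rab10os on the opposite strand.

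Rab14, which acts between the Golgi and endosomes, had the highest ratio between the libraries among the genes with a shared position, with 1 peak of 6 tags in replicate 1 and 4 peaks with 78 tags in replicate 2. The peak across its stop codon had 35 tags in replicate 2 and no partner in replicate 1. Rab35, a regulator of recycling and phagosome formation, differed in the other direction, with 26 tags in replicate 1 and 10 in replicate 2, and shared no position: its coding peaks filled exons 3 and 4 in replicate 1, and its peak in replicate 2 was in the 3′ UTR. Rab11a and Rab11b, the main Rab genes of the recycling endosome, had peaks in replicate 2 only. Rab11b had 28 tags in 2 peaks, and Rab11a had 4 tags in a peak that lay mostly past the annotated end of its 3′ UTR. Rab12, Rab13, Rab15 and Rab25 had none.

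**Figure D2:**
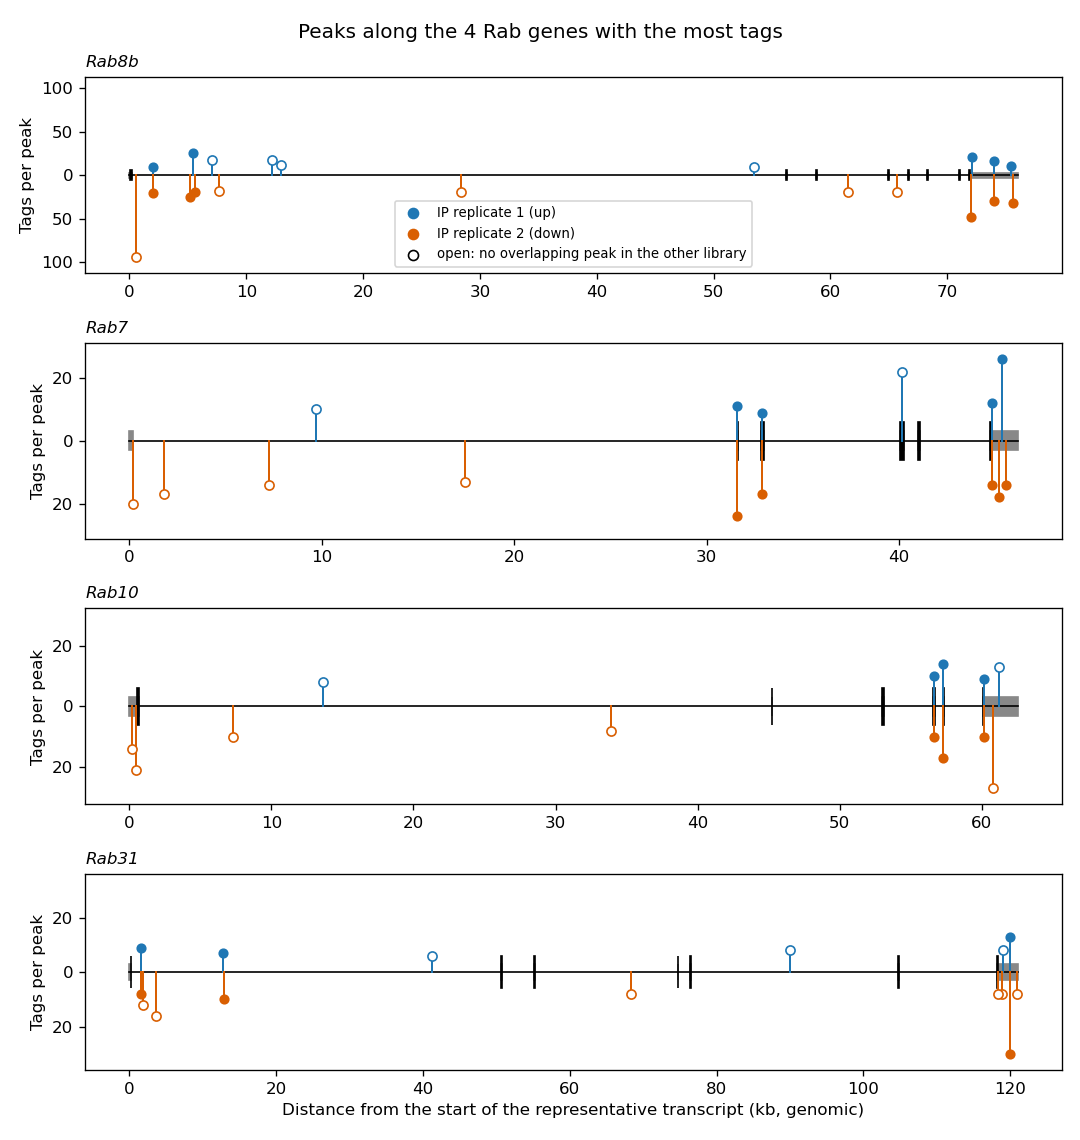
Sense peaks along Rab8b, Rab7, Rab10 and Rab31, by genomic distance in kb from the start of the representative transcript, with tags upwards for IP replicate 1 and downwards for IP replicate 2; grey boxes are exons, black boxes coding parts, and open circles peaks with no overlapping peak in the other library. In all 4 genes the last exon holds a filled circle in both libraries, and the Rab8b peak of 94 tags at the 5′ end is open.

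Among the genes of late endosomes and lysosomes, Rab7 and Rab32 had peaks in both libraries, 2 of the 9 listed. Rab7, which drives the fusion of late endosomes and phagosomes with lysosomes, had 6 peaks with 90 tags in replicate 1 and 9 peaks with 151 tags in replicate 2. Its shared positions were the 5 pairs formed by exons 2 and 3 and the 3′ UTR. The 3′ UTR was covered by 2 peaks with 26 and 12 tags in replicate 1 and by 3 peaks with 14, 18 and 14 tags in replicate 2, so that a long peak of 698 nt met 2 shorter ones. Exon 4, filled by a peak of 22 tags in replicate 1, had no peak in replicate 2. Exon 1, in the 5′ UTR, had 20 tags in replicate 2 and no peak in replicate 1. The 3′ part of Rab7 overlaps Gm5577 on the opposite strand.

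Rab32, which acts on lysosome-related organelles, had 6 tags in the 3′ UTR in replicate 1 and 3 tags in an intron in replicate 2, with no shared position. Rab7b, a relative of Rab7 that acts on traffic from endosomes to the Golgi, had 1 peak of 23 tags, 19.0% in coding sequence and 81.0% in an intron, in replicate 2 alone. Rab9, Rab9b, Rab24, Rab29, Rab38 and Rab42 had none.

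Among the genes of early endosomes and phagosomes, Rab21, Rab22a, Rab31 and Rab4b had peaks in both libraries, 4 of the 10 listed. Rab31, which acts between the Golgi and endosomes, had 6 peaks with 51 tags in replicate 1 and 9 peaks with 108 tags in replicate 2. Its 3 shared positions were 1 in the 3′ UTR, with 13 and 30 tags, and 2 in intron 1, with 7 and 10 tags and with 9 and 8 tags. Rab21, which steers integrin traffic, had more tags in replicate 1 than in replicate 2, 35 against 16. In replicate 1 it had 5 coding peaks of 5 or 6 tags each, of which 2 lay in exon 3, where replicate 2 had a peak of 8 tags over the whole exon.

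Rab22a, a regulator of endosome sorting, had 16 tags in replicate 1 and 25 in replicate 2. Its shared position, in exon 7, had 10 and 13 tags, and the overlap held 3 GGAC. Rab4b, which acts in fast recycling, had 4 and 6 tags at different positions, in a region that the read-through gene Gm21983 shares on the same strand. Rab5c, of the Rab5 group that defines early endosomes, had 25 tags in 2 intron peaks in replicate 2 only, and Rab5a and Rab5b had no peak. Rab20 had 7 tags in 1 intron peak in replicate 2, and Rab4a and Rab17 had no sense peak.

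Among the genes of the endoplasmic reticulum (ER) and the Golgi, Rab1a, Rab1b, Rab2a, Rab6a and Rab18 had peaks in both libraries. These are 5 of the 16 listed (31.2%, 11.0 to 58.7). Rab1a, which acts from the ER to the Golgi, was the most even of them, with 27 tags in replicate 1 and 28 in replicate 2. Its shared peaks had 8 and 14 tags in the 5′ UTR around exon 1 and 13 and 14 tags in the 3′ UTR. Its close relative Rab1b had 5 tags in replicate 1 and 45 in replicate 2, all in 3′ UTR peaks, and the shared position, across the stop codon, had 5 and 17 tags. Like Rab14, Rab1b was thus low in replicate 1 and high in replicate 2.

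Rab2a, which acts on the return path to the ER, had 14 tags in replicate 1 and 20 in replicate 2, and shared a position in intron 1 with 8 and 6 tags. Rab6a, of Golgi transport, had 10 and 6 tags, and its shared 3′ UTR position had 5 and 6. Rab18, linked to lipid droplets, had 14 tags in 3 coding exons in replicate 1 and 6 tags in the 3′ UTR in replicate 2, where AC131796.2 lies on the same strand. Rab43 had 30 tags in 2 peaks in replicate 2 only, overlapping Gm45140 on the same strand. Rab19 and Rab33b had 4 tags each in an intron in replicate 1 only, the Rab33b peak overlapping Gm37968. Rab2b, Rab6b, Rab30, Rab33a, Rab34, Rab36, Rab39 and Rab39b had none.

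None of the 9 genes of secretory granules had a peak in both libraries. The exact interval reaches up to 33.6% and includes the 17.0% of all protein-coding genes. Rab3d had 4 tags and Rab37 had 3 tags, both in replicate 2, and Rab3a, Rab3b, Rab3c, Rab26, Rab27a, Rab27b and Rab44 had none. Of the 4 genes outside these groups, Rab28 had 6 tags in replicate 1 and 11 in replicate 2 in introns 2 and 4, Rab40c had 12 tags in 2 intron peaks in replicate 1, and Rab23 and Rab40b had none. In all, 31 Rab genes had no sense peak. A gene without a listed peak is not shown to be unbound or unexpressed, because the lists start at 3 tags and the depth is unknown.

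The 59 genes differ in length, and the 17 with a peak in both were not set apart in their coding length, with a median of 621.0 nt against 648.0 nt in the 31 without a peak. Their median gene span was 33.9 kb against 22.1 kb, and their median mRNA 3081.0 nt against 2366.0 nt. Over all protein-coding genes with a peak in both, the median span was 41.5 kb and the median mRNA 3754.0 nt, against 17.4 kb and 2568.0 nt over all protein-coding genes. The part of length in these counts was not tested.

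The share of Rab peaks in coding sequence was below that of protein-coding genes at large, and the share in 3′ UTRs was above it. In replicate 1, 33.3% (95% interval 21.7 to 46.7) were in coding sequence against 47.6% of all sense peaks, and 23.3% (14 of 60) were in 3′ UTRs against 12.5%. In replicate 2, 15.1% (7.77 to 25.4) were in coding sequence against 45.2%, and 35.6% (24.7 to 47.7) were in 3′ UTRs against 11.8%. These intervals exclude the values for all genes, but they treat peaks of 1 gene as separate. Without Rab8b the replicate 1 intervals included them (25.8 to 53.9 for coding sequence, 11.3 to 35.3 for 3′ UTRs), while those of replicate 2 did not (9.20 to 29.5 and 25.2 to 50.3). Introns held 41.7% and 41.1% of Rab peaks, against 37.2% and 40.3%. The 5′ UTR held 1.67% and 8.22%, against 2.68% in each library, and the replicate 2 interval was 3.08 to 17.0. By the reference annotation at the peak midpoint, the replicate 2 share was 6.85% (2.26 to 15.3) against 2.43%, and the interval included the value for all genes.

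**Figure D3:**
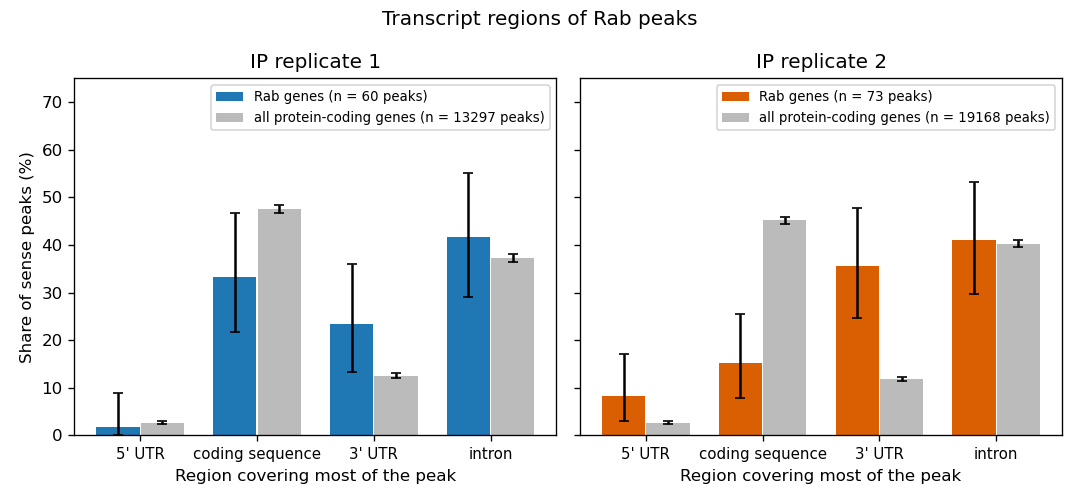
Share of sense peaks by the region that covers most of the peak, for Rab genes (coloured) and all protein-coding genes (grey), with exact binomial 95% intervals for counting error. The coloured coding bar is below the grey one and the coloured 3′ UTR bar above it in both libraries, at 33.3% and 23.3% in replicate 1 and at 15.1% and 35.6% in replicate 2.

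Rab proteins are short, and this shows in the transcripts. The median coding sequence was 645.0 nt in the family against 1155.0 nt over all protein-coding genes, while the median mRNA was about the same, at 2657.0 and 2568.0 nt. How much of the difference in peak regions goes with that was not tested. Peaks over both coding sequence and 3′ UTR numbered 5 of 60 (8.33%) and 8 of 73 in the family, against 4.09% and 4.36% of all sense peaks. Those of replicate 2 included peaks of Rab14 and Rab1b, with 35 and 17 tags.

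Many of the family's coding peaks filled whole exons. In replicate 1, 13 of 20 Rab coding peaks (65.0%, 40.8 to 84.6) had both ends at exon ends, against 34.4% of all coding peaks. In replicate 2 it was 7 of 11 (63.6%, 30.8 to 89.1), against 36.0%, which lies inside that interval. They included exons of Rab7, Rab10, Rab18, Rab21, Rab35, Rab8a, Rab14 and Rab4b. The median internal coding exon was 90.0 nt in the family and 123.0 nt over all protein-coding genes.

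Intron peaks of the family gathered in intron 1. Of 25 Rab intron peaks in replicate 1, 19 (76.0%) lay there, and of 30 in replicate 2, 22 (73.3%), while the share over all protein-coding genes was 29.3% (1449 of 4943) and 2160 of 7718. In the Rab genes with an intron peak, intron 1 made up 48.1% and 53.4% of the intron length, against 26.1% and 25.3% in all protein-coding genes with an intron peak. Without Rab8b the shares in intron 1 were 68.4% and 72.7%. Rab7, Rab31, Rab10, Rab5c and Rab40c each had intron 1 peaks besides Rab8b. This pattern was noticed in the same data.

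Of the 60 Rab peaks of replicate 1, 26 (43.3%, 30.6 to 56.8) overlapped a peak of replicate 2, against 37.1% of all sense peaks. Of the 73 of replicate 2, 28 (38.4%, 27.2 to 50.5) overlapped a peak of replicate 1, against 25.4%, and here the interval excludes the value for all genes, though without Rab8b it does not (35.5%, 23.7 to 48.7). The 28 pairs of Rab peaks fell in 12 genes: 6 in Rab8b, 5 in Rab7, 3 each in Rab10 and Rab31, 2 each in Rab1a, Rab21 and Rab8a, and 1 each in Rab14, Rab1b, Rab22a, Rab2a and Rab6a. By region of the replicate 1 peak, 11 were in 3′ UTRs, 10 in coding sequence, 6 in introns and 1 in a 5′ UTR. Of the intron peaks, 5 of 25 from replicate 1 and 6 of 30 from replicate 2 had a partner, near the 24.1% and 17.3% of all intron peaks of protein-coding genes. All of these lay in intron 1, in Rab8b, Rab31 and Rab2a. For 3′ UTR peaks it was 10 of 14 (71.4%, 41.9 to 91.6) and 12 of 26 (46.2%, 26.6 to 66.6), against 39.7% and 29.8% of all. The replicate 2 interval includes the value for all. Without Rab8b it was 7 of 11 (30.8 to 89.1) and 9 of 23 (19.7 to 61.5), and both intervals include it. For coding peaks it was 10 of 20 in replicate 1, near the 46.4% of all, and 9 of 11 (81.8%) in replicate 2, against 31.4%.

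**Figure D4:**
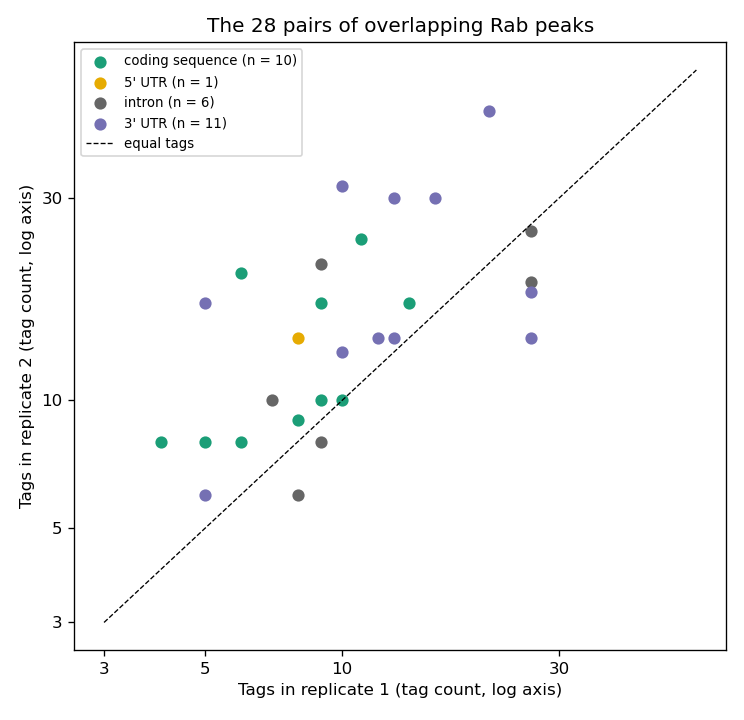
Tags in replicate 1 and replicate 2 (log axes) for the 28 pairs of overlapping Rab peaks, coloured by region, with the line of equal tags. Of the pairs, 21 lie above the line, 1 on it and 6 below, and the 3′ UTR pairs span the widest range of tags in replicate 2.

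Within the pairs, 21 had more tags in replicate 2, 1 had equal tags and 6 had fewer. The median ratio of replicate 2 to replicate 1 was 1.32, from 0.538 in a 3′ UTR pair of Rab7 to 3.40 in Rab1b, and it was below that of the 5064 pairs of all protein-coding genes. The summits of a pair lay a median of 30.0 nt apart, and in 25 of 28 pairs within 100 nt. The same ends in both libraries were found in 17.9% of the Rab pairs and 11.1% of all pairs. Summed over all sense peaks, the family had 2.06 times as many tags in replicate 2, beside 1.80 times for all protein-coding genes.

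The share of Rab peaks that hold GGAC was not above that of others when all lengths were taken. Of the Rab peaks that lay within 1 exon of the representative transcript, 11 of 33 (33.3%) held it in replicate 1 and 16 of 34 (47.1%) in replicate 2, against 51.8% and 51.6% of such peaks of all protein-coding genes. Rab coding peaks are short, so those within the lengths of the repeated exons above were set beside all coding peaks of those lengths. GGAC was held by 5 of 16 Rab peaks (31.2%) in replicate 1 and 3 of 8 (37.5%) in replicate 2, against 35.6% and 33.4%. These few peaks include the repeated exons themselves. In replicate 1 the lengths were matched only in part, with medians of 61.5 nt for Rab peaks and 89.0 nt for all. In the whole coding sequence, GGAC occurred 5.77 times per kb in the family and 4.91 times per kb over all protein-coding genes. Among 3′ UTR peaks, 38.5% of Rab peaks in replicate 1 and 54.5% in replicate 2 held GGAC, against 61.7% and 62.4% of all, at median lengths of 254.0 and 253.0 nt in replicate 1. The search read only the mRNA strand.

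One source of GGAC in the family is the switch II motif Trp-Asp-Thr-Ala, part of the hinge that moves when GTP is cleaved. It was found in frame in 52 of the 59 coding sequences, and in 45 of these its codons held GGAC. Peaks covered it in few genes: in Rab7 (22 tags), Rab21 (11 tags in the 2 exons it spans), Rab18 (10 tags in 2 exons) and Rab35 (9 tags) in replicate 1, and in Rab21 alone (8 tags) in replicate 2. The switch II codons of Rab18 do not hold GGAC. Those of Rab21 do, but they are split between 2 exons, and none of the Rab21 peaks there held GGAC. The P-loop codons were covered in Rab7 in both libraries, and in Rab10, Rab2a and Rab8b in replicate 2. The codons of the guanine-binding motif were covered in Rab10 and Rab8a in both, in Rab7 and Rab21 in replicate 1 and in Rab14 in replicate 2. This search was added after the values had been seen, and a match is a description of the sequence, not a site of binding or of the methyl mark.

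Among genes that act on Rab proteins, the share with peaks in both libraries was larger than among Rab genes, 65 of 153 (42.5%, 34.5 to 50.7) against 28.8%, without a test of the difference. Over all protein-coding genes it was 17.0%. Of 49 exchange factors, 19 had a peak in both. Rab3il1, an exchange factor, had 317 tags in replicate 1 and 473 in replicate 2, more than any Rab gene in the same library. Dennd4c had 82 and 181, Dennd1a 55 and 298, and Dennd4b 43 and 41. Of 35 GAP genes, 14 had a peak in both. Rab3gap2, a subunit of the Rab3GAP complex, had 135 and 337 tags, Tbc1d16 84 and 134, Tbc1d22a 47 and 210, and Tbc1d1 37 and 58.

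Of 9 genes for GDI, REP, prenylation and Rab kinases, 2 had peaks in both, among them Gdi2 (36 and 98 tags), which extracts Rab proteins from membranes. Of 60 effector genes, 30 did. Myo5a, the motor that carries Rab-marked vesicles on actin, had 243 and 465 tags, Ehbp1l1 109 and 366, Plekhm1 49 and 152, and Eea1, the tether of early endosomes, 70 and 86. These genes had high tag totals by the rule that named them. Of the 65 genes with a peak in both, 33 shared a position, which is 21.6% of the lists and near the 20.3% of Rab genes. Among effectors it was 10 of 60 (16.7%), and over all protein-coding genes 9.07%. These counts are not per length, and many of these genes are long.

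In the related families of small GTPases, 8 of 30 Arf genes and 6 of 34 Ras genes had a peak in both libraries. Their shares were 26.7% (12.3 to 45.9) and 17.6% (6.76 to 34.5). Both intervals contain the 28.8% of the Rab family and the 17.0% of all protein-coding genes. The highest by rank were Arl15 (43 and 50 tags) and Rap2b (61 and 78 tags). The counts thus do not set the Rab family apart from these families.

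**Figure D5:**
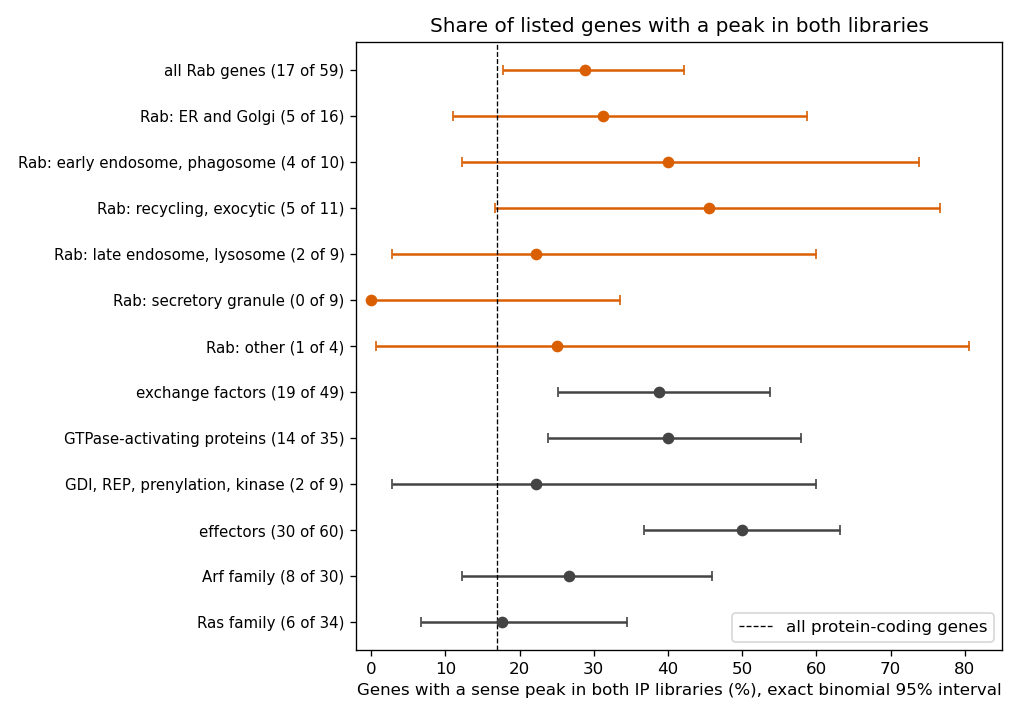
Share of listed genes with a sense peak in both IP libraries, with exact binomial 95% intervals, for Rab genes and their role groups (orange) and for genes of the Rab cycle and other small GTPases (dark); the dashed line is the 17.0% of all protein-coding genes. The effectors are highest, with 30 of 60, and the secretory granule group is at 0, and the intervals of the Rab role groups overlap one another.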

How the data were processed

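Groups came from the sample titles. The submitters' processing notes name TopHat2, bcl2fastq and GRCm38. How peaks were called, at which threshold, how duplicates were handled and whether the input was used is not given in the sources used here. The authors deposited, per the file headers, a whole, unscaled tag count per peak (lowest 3) and a maximum height, a coverage signal. Library depth is unknown. Deposited starts and summits count from 0 and ends from 1: the start plus 1 fell on an annotated exon start in 3940 of 13297 and 5628 of 19168 peaks, the start itself in 27 and 40. Coordinates here are corrected to count from 1, and lengths are 1 nt shorter than deposited.

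Peaks were given the authors' gene, without its version, and the region covering most of the peak. Of sense identifiers, 99.7% and 99.8% matched GENCODE release 21. Antisense peaks were left out. Overlap needed at least 1 bp on the same strand and was tested on simulated data. Shares have exact binomial 95% intervals. No test was made: there are 2 libraries of 1 group, without input values. The members and lists were chosen with earlier results of these data known. Named were members with a shared position, the 20 highest by mean rank of summed tags among those with a peak in both (17 exist), and up to 4 genes per other list ranked alike; the remaining members are named by role. Some items are not reported here. Reads shared by near-identical relatives, such as Rab1a and Rab1b or Rab8a and Rab8b, are uncertain, since the handling of multiple matches is not given. Python 3.11.15, numpy 2.4.6, pandas 2.3.3, scipy 1.17.1 and matplotlib 3.10.9 were used.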

Additional observations from a re-analysis of the deposited data

Results flagged for a closer look

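Antisense peaks were outside the comparisons above, and 4 of them on Rab genes had more than the 3 tags at which the lists start. Rab11b had a peak of 8 tags in replicate 1 opposite its 3′ UTR, and an antisense peak of 3 tags lay at an overlapping position in replicate 2. Rab4a had an antisense peak of 4 tags in replicate 1. Rab8b had antisense peaks of 4 and 6 tags in replicate 2, of which the stronger lay opposite the sense peak of 94 tags at its 5′ end. The part of reads assigned to the wrong strand in these peaks was not tested.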

How the results depend on the processing

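With the stronger 50% of each list by tags, 8 Rab genes (13.6%) had a peak in both libraries in place of 17, against 8.20% of all protein-coding genes; this setting keeps fewer peaks by its construction. The 37 other alternative values did not move by the rule used, which for counts was a ratio of 1.5 to the reported count. For the count of 17 they were 14 with exonic peaks only (23.7% against 11.6% of all), 13 with equal numbers of the strongest peaks (22.0% against 13.6%), 18 with antisense peaks (30.5% against 17.7%), 18 with Rab3ip and Rab5if, and 20 and 25 with replicate 1 or replicate 2 alone. With equal numbers of the strongest peaks, the interval was 12.3 to 34.7, which contains the 13.6% of all protein-coding genes. Requiring a shared position (12 genes), leaving out Rab8b, and leaving out peaks that fill exons were chosen after seeing the data. Without Rab8b, the coding share was 39.2% and 17.7%, and the overlapped share 41.2% and 35.5%. Without peaks that fill exons, the overlapped share was 42.6% and 33.3%. No paired analysis was possible because only the IP libraries have values and no result comes from a test. Depth limits the weak peaks, those of 3 to 5 tags, which were 12 of the family's 60 in replicate 1 and 5 of its 73 in replicate 2.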

Other observations

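The authors' lists hold 3 unassigned peaks inside the annotated span of a member on its own strand, all labelled intergenic: 1 of 3 tags in Rab18 and 1 of 4 tags in Rab21 in replicate 1, and 1 of 6 tags in Rab21 in replicate 2. The Rab21 peak of replicate 1 overlaps the 3′ UTR peak of 8 tags of replicate 2, so the end of this gene was covered in both libraries without counting as a shared position above. A peak of 3 tags inside Rab44 in replicate 2 was assigned by the authors to another gene. Tag counts were more often even than odd, in 70.0% and 65.8% of Rab peaks and in 68.1% and 63.9% of all sense peaks of protein-coding genes. The libraries are paired-end by their labels, and whether both ends of a fragment were counted as separate tags is not given in the sources used here.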
